A study of Mus musculus with 8 samples.

Results

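Immediate early genes are switched on within minutes of a stimulus, without new protein synthesis, and many encode transcription factors or enzymes that end the signal they respond to. A set of 37 immediate early or stress-induced genes was read from the gallbladders of leptin-deficient mice given leptin or saline. Members were chosen by name, as every probe set of the array whose single annotated mouse symbol, current or older, is 1 of the 37. All 37 were on the array, Cyr61 and Ctgf under their current names Ccn1 and Ccn2, through 66 of 45037 probe sets.

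The mice were female B6.V-lepob animals, whose leptin gene carries the obese mutation, so mice of both treatments lacked leptin of their own. They came at 7 weeks of age, and after 1 week on chow they received daily intraperitoneal injections over 4 weeks of 5 µg of recombinant mouse leptin per g body weight or of saline. Gallbladders were taken at 12 weeks of age after a night without food, and RNA came from pools of 3 gallbladders, 4 pools per treatment, numbered 1 to 4 for saline and 5 to 8 for leptin. A pool hides the spread between its 3 animals, and the time between the last injection and surgery is not given in the labels.

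Gene families here differ in their job. FOS and JUN proteins pair into the transcription factor AP-1, EGR and KLF proteins are zinc finger transcription factors, and NR4A proteins are nuclear receptors whose activity follows their amount. DUSP phosphatases take phosphate off MAP kinases and so limit the cascade that induced them. ZFP36 proteins bind AU-rich stretches of messenger RNA and hasten its decay, and GADD45 proteins act in stress signalling and growth arrest. CYR61 and CTGF are secreted matrix proteins whose genes respond to growth factors, stretch and the coactivators YAP and TAZ.

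Each array was scaled by the authors to a trimmed mean signal of 250. Treatment separated along the leading principal component (36.5% of variance), where leptin pools scored 24.9 to 42.5 and saline pools -35.5 to -27.4. Leptin pool 7 stood apart on the next component (16.5%), at 49.1 against -23.7 to 12.6 elsewhere. The median signal was 94.0 to 107 in leptin and 77.8 to 87.3 in saline pools. The ratio of the 3' to the 5' actin control, a measure of RNA integrity, was 1.674 to 2.172 and 1.498 to 1.683. The same ratio of the GAPDH control was 0.791 to 0.846 in leptin and 0.774 to 0.870 in saline pools. All 9 gallbladder epithelium markers and all 8 smooth muscle markers lay above background (a signal of 46.0) in every pool. So did all 7 hepatocyte markers and 3 of 4 adipocyte markers on the array.

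Fewer members were called than not, and most of those called were lower with leptin. A member was read from its brightest probe set, and 33 of 37 had one bright enough to be tested. Of these, 7 fell and 1 rose (limma, adjusted p under 0.05 over all 22519 tested probe sets), and 25 were not called. Across all 11719 tested genes, 3.98% were called lower and 4.29% higher. By probe set, 11 of the members' 50 tested fell and 2 rose, against 3.39% and 3.54% of all tested probe sets, or 6.93% either way. The median log2 fold change, leptin minus saline, was -0.20 over the 33 members and 0.020 over all tested genes. Of the members 22 were negative and 11 positive, against 5559 and 6160 of all 11719 tested genes. In bulk tissue, fewer cells of a type and less RNA per cell cannot be told apart. The pools of both treatments did not overlap in 8 members that were lower and 2 that were higher, against 8.58% and 8.45% of all tested genes.

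**Figure D1:**
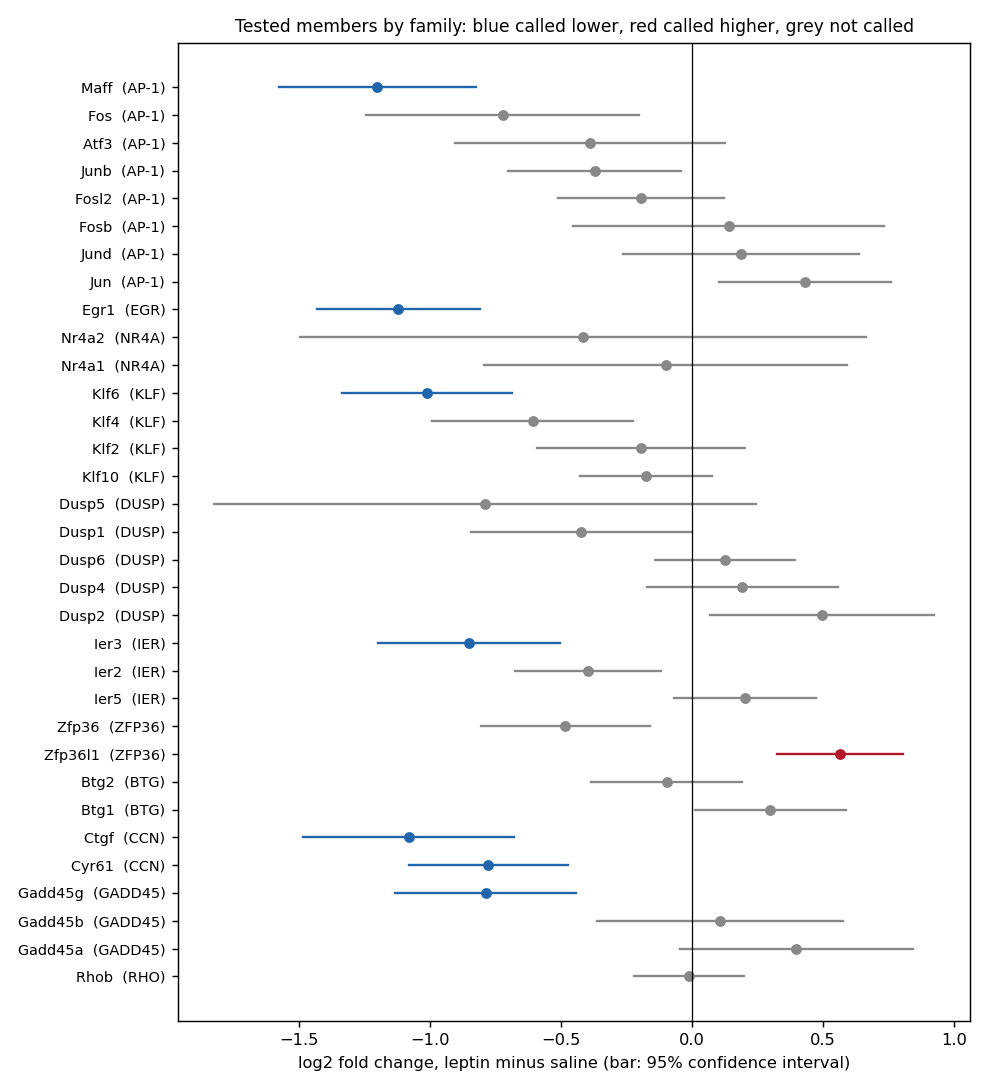
Log2 fold change (leptin minus saline, x axis) of the 33 tested members, grouped by family; points are limma estimates and bars their 95% confidence intervals, with 4 pools per treatment. The 7 members called lower (Maff, Egr1, Klf6, Ier3, Ctgf, Cyr61 and Gadd45g) lie between -1.20 and -0.78, and Zfp36l1 alone is called higher, at 0.57.

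Promoters of the called members are shown because members that are induced together often share sites for the same factors. RefSeq's table (GRCm38.p6) held 36 promoters of 30 members, each 300 bases long, 250 before to 50 after a start. Egr2 has 5 starts, some with overlapping windows, and Maff has 3. Ctgf, Klf10, Egr1, Ier2, Dusp4, Egr3 and Fosl1 had no entry. The 250 bases before the start are printed 5′ to 3′ on the gene's strand for Maff, called lower and with most matches, for Cyr61 and Klf6, called lower, and for the relatives Zfp36 and Zfp36l1, of opposite sign. Capitals mark the motifs searched.
Maff (chr15:79347270-79347519, plus strand): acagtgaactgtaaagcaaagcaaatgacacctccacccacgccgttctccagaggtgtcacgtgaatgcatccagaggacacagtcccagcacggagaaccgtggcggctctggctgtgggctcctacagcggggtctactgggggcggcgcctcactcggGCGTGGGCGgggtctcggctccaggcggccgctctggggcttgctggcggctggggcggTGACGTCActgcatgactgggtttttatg
Cyr61 (chr3:145649986-145650235, minus strand): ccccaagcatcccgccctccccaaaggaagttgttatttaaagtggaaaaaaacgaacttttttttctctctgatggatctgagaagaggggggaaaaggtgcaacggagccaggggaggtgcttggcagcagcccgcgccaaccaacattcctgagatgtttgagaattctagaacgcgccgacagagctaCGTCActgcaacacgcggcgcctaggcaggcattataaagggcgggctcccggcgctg
Klf6 (chr13:5861239-5861488, plus strand): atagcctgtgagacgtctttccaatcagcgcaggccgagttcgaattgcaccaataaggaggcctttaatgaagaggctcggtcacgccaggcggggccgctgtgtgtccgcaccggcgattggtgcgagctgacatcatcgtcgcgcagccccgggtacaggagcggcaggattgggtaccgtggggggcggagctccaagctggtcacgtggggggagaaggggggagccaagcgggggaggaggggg
Zfp36 (chr7:28379229-28379478, minus strand): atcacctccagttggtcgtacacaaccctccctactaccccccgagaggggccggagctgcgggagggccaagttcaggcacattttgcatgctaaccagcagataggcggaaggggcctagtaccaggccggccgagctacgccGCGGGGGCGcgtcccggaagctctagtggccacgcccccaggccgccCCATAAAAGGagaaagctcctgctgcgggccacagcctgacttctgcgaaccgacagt
Zfp36l1 (chr12:80113014-80113263, minus strand): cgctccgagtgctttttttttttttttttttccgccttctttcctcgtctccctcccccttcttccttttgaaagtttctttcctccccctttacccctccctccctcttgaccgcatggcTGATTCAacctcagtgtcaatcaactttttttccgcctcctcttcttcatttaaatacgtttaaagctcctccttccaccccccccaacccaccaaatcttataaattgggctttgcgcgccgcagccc

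Both strands were searched for 5 motifs: AP-1 (TGANTCA), the cyclic AMP response element (TGACGTCA), its shorter form (TGACG, which lies inside the former), EGR (GCGGGGGCG or GCGTGGGCG) and the CArG box of serum response factor. The printed Maff promoter held the full cyclic AMP element from 29 to 22 bases before the start (-29 to -22) and an EGR match. The promoter at another Maff start held only the short form (-122 to -118), and that at the remaining start held none of the 5. Cyr61 held the short form from -58 to -54, and Klf6 held none of the 5. The called members Ier3 and Gadd45g, not printed, also held none. Zfp36 held an EGR match (-105 to -97) and a CArG box (-58 to -49), and Zfp36l1 an AP-1 match (-129 to -123).

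Over the members as a whole, the CArG box was in 6 of 36 promoters (16.7%), against 1.63% of all 32851, but 4 of these are Egr2 starts and the others belong to Dusp5 and Zfp36. An EGR match was in 8 (22.2% against 3.47%), and the full cyclic AMP element in 3 (8.33% against 1.79%), those of Btg2, Dusp1 and Maff. Of these 3 genes, Maff was called, and Btg2 and Dusp1 were not. The short form was in 20 (55.6% against 20.8%) and AP-1 in 1 (2.78% against 7.81%). Of the 8 members with an EGR match, Maff was called, and Dusp2, Fosb, Fosl2, Klf2, Klf4, Nr4a1 and Zfp36 were not. Of the 5 called members with no EGR match and a promoter in the table (Cyr61, Ier3, Klf6, Gadd45g and Zfp36l1), 4 fell and 1 rose. These matches describe letters in a window and were not tested as binding sites.

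Egr1, a zinc finger factor induced by growth factors and injury, fell. Its signal (probe set 1417065_at) was 1699, 2204, 2781 and 2489 in saline pools 1 to 4 and 1137, 964, 958 and 1081 in leptin pools 5 to 8. The lowest saline pool lay above the highest leptin pool, and the leptin pools lay close together. The mean went from 2293 ± 461 to 1035 ± 88.4 (SD, n = 4 each), a log2 fold change of -1.12 ± 0.14 (SE) and a 2.18-fold lower level (limma adjusted p = 0.000556). The relatives Egr2 and Egr3 were too dim to be tested: their brightest probe sets lay under background in 3 and 5 of the 8 pools. Egr2 signals ran from 27.3 to 85.5 in saline and 11.4 to 116 in leptin pools, and Egr3 signals from 18.2 to 73.0 and from 14.8 to 158, so the ranges overlap.

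Within AP-1, 1 of 8 tested members was called, Maff, against 3.98% of all tested genes called lower and 4.29% higher. MAFF is a small MAF protein that binds DNA but lacks a domain to activate transcription by itself. The cyclic AMP element printed above lies at a single start of Maff. The Maff gene fell. Its signal (1418936_at) was 510, 429.5, 464 and 578 with saline and 192, 212, 284 and 167 with leptin, so every leptin pool lay under every saline pool. Mean signals were 495.5 ± 64.3 and 213.5 ± 50.4 (SD, n = 4 each), with a log2 fold change of -1.20 ± 0.17 (SE; limma adjusted p = 0.00134).

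Fos itself, the prototype of the class, varied widely among saline pools and was not called. Fos signals were 1201, 2158, 2970 and 1604 with saline and 1306, 807, 1350 and 1153 with leptin. Saline pool 1 lay among the leptin pools, and saline pool 3 was the highest. Leptin and saline differed by a log2 fold change of -0.72 ± 0.24 (SE; limma adjusted p = 0.0911). Without saline pool 1 Fos was at -0.94 and passed (limma adjusted p = 0.0263), and with array weights it was at -0.85 (0.028). Under quantile and loess scaling Fos was at -0.61 and -0.62 and did not pass (limma adjusted p = 0.182 and 0.171).

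Jun, the usual partner of FOS, had the opposite sign. Jun signals were 808, 1091, 883 and 693 with saline and 1359, 965, 1120.4 and 1226 with leptin. Only saline pool 2 reached into the leptin range, above leptin pool 6. This gave a log2 fold change of 0.43 ± 0.15 (SE; limma adjusted p = 0.107), and the other probe set of Jun gave 0.36 ± 0.15 (0.168). So Fos and Jun lay on opposite sides of 0, neither passed, and the difference between them was not tested.

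The other AP-1 members were not called. Jund, the brightest, had signals of 3984, 3302, 3058 and 2369 with saline and 2184, 4219, 4320 and 4014.5 with leptin, so leptin pool 5 alone lay under all saline pools. Its log2 fold change was 0.19 ± 0.21 (SE; limma adjusted p = 0.633). Junb had signals from 368 to 551 with saline and from 292 to 382 with leptin, with medians of 456 and 362. The estimate was -0.37 ± 0.15. Atf3, a repressor induced by stress, was at -0.39 ± 0.24, Fosl2 at -0.20 ± 0.15 and Fosb at 0.14 ± 0.27, with adjusted p between 0.162 and 0.803. The signs of Fosb and Jund turned under median centring of the arrays, to -0.11 and -0.064, and that of Fosb also turned under quantile and loess scaling. Fosl1 was too dim to be tested, with 3 of 8 pools under background.

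All 4 KLF genes had negative log2 fold changes under each scaling run. With the deposited scaling, 5559 of all 11719 tested genes were negative too, and median centring put the median of all tested genes at -0.23. Of the 4, 1 was called, Klf6, against 3.98% of all tested genes called lower and 4.29% higher. KLF6 is a zinc finger factor that restrains proliferation. Klf6 signals (1433508_at) were 989, 795.5, 846 and 825 with saline and 475.5, 398, 512 and 328 with leptin. The groups lay well apart, at a log2 fold change of -1.01 ± 0.15 (SE; limma adjusted p = 0.00162). Klf6 has 5 tested probe sets, and 4 of them fell, at -1.01, -0.89, -0.85 and -0.82. The dimmest, at -0.43 ± 0.22, was not called (adjusted p = 0.264).

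Klf4, a factor of differentiated epithelium, missed the threshold. Klf4 signals were 1019, 755.5, 747 and 572 with saline and 631, 495, 433 and 438 with leptin. Saline pool 4 lay under leptin pool 5, and the remaining pools did not overlap. This gave a log2 fold change of -0.61 ± 0.18 (SE; limma adjusted p = 0.0578). Its other probe set gave -0.45 ± 0.15 (adjusted p = 0.0989), with no overlap between treatments. Klf4 passed without saline pool 4 (0.0345), without leptin pool 5 (0.0406) and with array weights (0.032). It also passed when only probe sets past the 75th percentile in brightness were tested (0.0469). Klf4 stayed uncalled under quantile and loess scaling (limma adjusted p = 0.0714 and 0.0815) and without the brightness filter (0.0887). Klf10, induced by TGF-beta, had signals of 1387, 1284, 1073 and 1059 with saline and 1068, 1079, 1025 and 1044 with leptin, so the leptin pools sat together at or just under the lower end of the saline range. The estimate was -0.18 ± 0.12 (limma adjusted p = 0.386). Klf2, a factor of endothelium that responds to flow, was at -0.19 ± 0.18 (0.557).

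Both CCN genes fell, against 3.98% of all tested genes called lower. Of the CCN genes, Cyr61 has the promoter printed above. Ctgf (1416953_at) had signals of 4764, 4313, 4923 and 4246 with saline and 1866, 2178, 3366 and 1546 with leptin. Leptin pool 7 was the highest of its group and still lay under all saline pools. The log2 fold change was -1.08 ± 0.19 (SE; limma adjusted p = 0.00452), and -1.30 without leptin pool 7. Cyr61 (1416039_x_at) had signals of 1761, 1581, 1468 and 1309.9 with saline and 709.6, 849, 976 and 1037 with leptin, again without overlap. The log2 fold change was -0.78 ± 0.14 (SE; adjusted p = 0.00588).

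The brightest Cyr61 probe set is of a kind that can share sequence with other transcripts. A second bright one (1438133_a_at) gave -1.18 ± 0.13 (limma adjusted p = 0.000147). The 2 dim ones gave -0.65 ± 0.27 and -0.62 ± 0.28 and were not called (adjusted p = 0.169 and 0.21). All 4 thus had the same sign, and 2 of 4 were called.

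**Figure D2:**
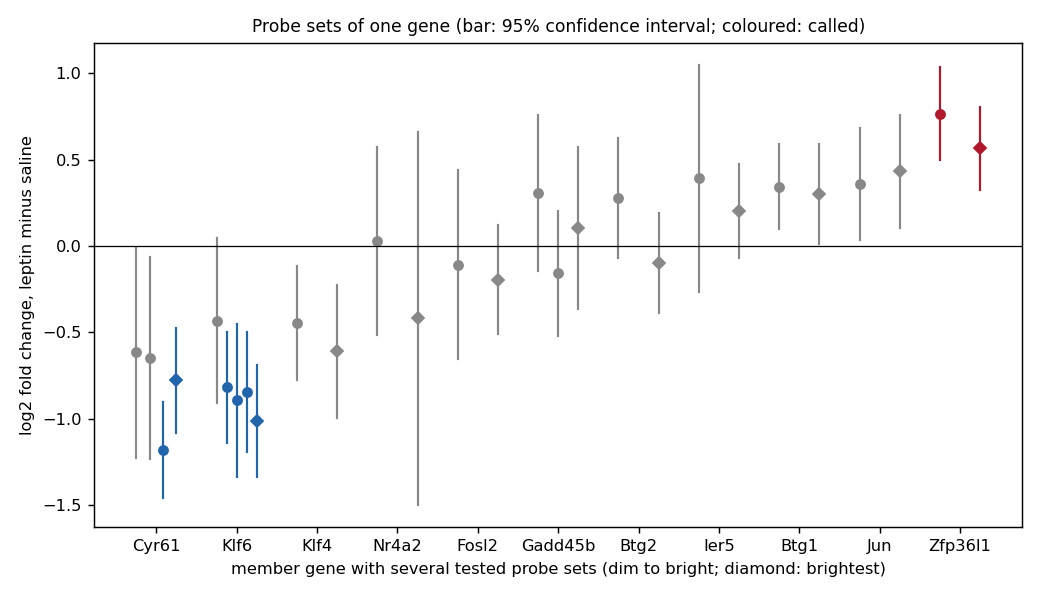
Log2 fold change (y axis, leptin minus saline) of each tested probe set of the 11 members that have several, from dim to bright within a gene, with 95% confidence intervals; a diamond is the brightest and colour marks a call. In Klf6 4 of 5, in Cyr61 2 of 4 and in Zfp36l1 both probe sets are called, while those of Nr4a2, Gadd45b and Btg2 lie on both sides of 0.

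Ier3, an anti-apoptotic gene of the stress response, fell. Ier3 signals (1419647_a_at) were 716, 780.3, 964 and 971 with saline and 499, 402, 601 and 396 with leptin, with no overlap. This gave a log2 fold change of -0.85 ± 0.16 (SE; limma adjusted p = 0.00781). Ier2 also did not overlap, with 920, 1000.1, 1131 and 929 against 746.5, 698.5, 669.5 and 908, but leptin pool 8 came close to the saline range. Its log2 fold change of -0.40 ± 0.13 did not pass (limma adjusted p = 0.0819). Ier5 lay the other way, from 369 to 451 with saline and from 454 to 496 with leptin, and at 0.20 ± 0.13 was not called (adjusted p = 0.356).

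Of the 3 GADD45 genes 1 was called, Gadd45g, against 3.98% of all tested genes called lower and 4.29% higher. Gadd45g signals (1453851_a_at) were 484, 604, 614 and 437 with saline and 240.4, 335, 311 and 335.5 with leptin, all leptin pools under all saline pools. Leptin and saline differed by a log2 fold change of -0.79 ± 0.16 (SE; limma adjusted p = 0.0114). Gadd45a, a p53 target, was at 0.40 ± 0.21 (adjusted p = 0.267), with 146 to 248 against 209 to 348. Gadd45b, induced by TGF-beta and NF-kappaB, had signals of 583, 614.5, 536 and 851 with saline and 527, 770.4, 1041.5 and 519 with leptin. It was at 0.11 ± 0.22, and its 2 other probe sets gave 0.31 and -0.16, so its direction was not settled.

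Zfp36l1 was the member called higher, and its relative Zfp36, the one with the CArG box, had the opposite sign. Zfp36l1 signals (1450644_at) were 1593, 1669, 1656 and 1631 with saline and 2369.7, 2744, 2018 and 2638 with leptin. The saline pools were nearly equal and all leptin pools lay above them. The log2 fold change was 0.57 ± 0.11 (SE; limma adjusted p = 0.00992), and the other probe set gave 0.77 ± 0.12 (0.00307). Median centring of the arrays put the first at 0.32, not called (0.122), and the second at 0.52, called (0.0213).

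Zfp36, which encodes tristetraprolin, had signals of 1592, 1566, 1822 and 1157 with saline and 1264, 1074, 899.6 and 1111 with leptin. Saline pool 4 lay among the leptin pools and the others above them. The log2 fold change was -0.49 ± 0.15 (SE; limma adjusted p = 0.0704), and without saline pool 4 it was -0.61 (0.0262). Under quantile and loess scaling Zfp36 was at -0.40 and -0.39 and did not pass (limma adjusted p = 0.14 and 0.155). The difference between both genes was not tested.

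None of the 5 DUSP genes was called by limma, and 2 had an unadjusted p under 0.05. Of the 33 tested members 17 had such a p, as did 2986 of all 11719 tested genes. Dusp1, a nuclear phosphatase that glucocorticoids and stress induce, had signals of 1594, 2569, 2359 and 1400 with saline and 1740.0, 1266, 1162 and 1625 with leptin, where leptin pools 5 and 8 lay above 2 saline pools. Its log2 fold change was -0.42 ± 0.20 (SE; limma adjusted p = 0.211). Dusp2, known from lymphocytes, was at 0.50 ± 0.20 (adjusted p = 0.151), and Dusp6, a phosphatase selective for ERK, at 0.13 ± 0.12 (0.58). Dusp4 was at 0.19 ± 0.17 and Dusp5 at -0.79 ± 0.48, where leptin pool 6, at 23.0, lay under background and the other 7 pools between 121 and 218. Median centring turned the signs of Dusp4 and Dusp6, to -0.059 and -0.12.

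The NR4A receptors gave no call. An unadjusted p under 0.05 (limma) was found in 0 of the 2 tested, against 2986 of all 11719 tested genes. Nr4a1 signals were 355, 417, 359 and 260.3 with saline and 517.5, 327, 137 and 440.4 with leptin, so leptin pools held both the highest and the lowest value. Leptin and saline differed by a log2 fold change of -0.10 ± 0.32 (SE; limma adjusted p = 0.883), and 0.29 without leptin pool 7. Nr4a2 had 6 probe sets, 2 of them tested and none called, with the brightest at -0.42 ± 0.50. Without leptin pool 8 it was at 0.17. Nr4a3 was too dim to be tested, under background in 7 of 8 pools at its brightest probe set.

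The remaining members were the antiproliferative genes Btg1 and Btg2 and the small GTPase gene Rhob. Btg1 signals were 1804, 2314, 1638 and 1673 with saline and 2721, 2294, 2069.7 and 2036 with leptin, where only saline pool 2 reached into the leptin range. The log2 fold change was 0.30 ± 0.13 (SE; limma adjusted p = 0.2), and a second bright probe set gave 0.34 ± 0.11 (0.0919). Btg2 was at -0.10 ± 0.13, and its other probe set at 0.28 ± 0.16. Rhob lay at 3231, 2952, 3408 and 3080.5 with saline and 3413, 3192, 3142 and 2830.1 with leptin, in overlapping ranges. Its log2 fold change was -0.012 ± 0.097 (limma adjusted p = 0.956), with a 95% confidence interval from -0.22 to 0.20.

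**Figure D3:**
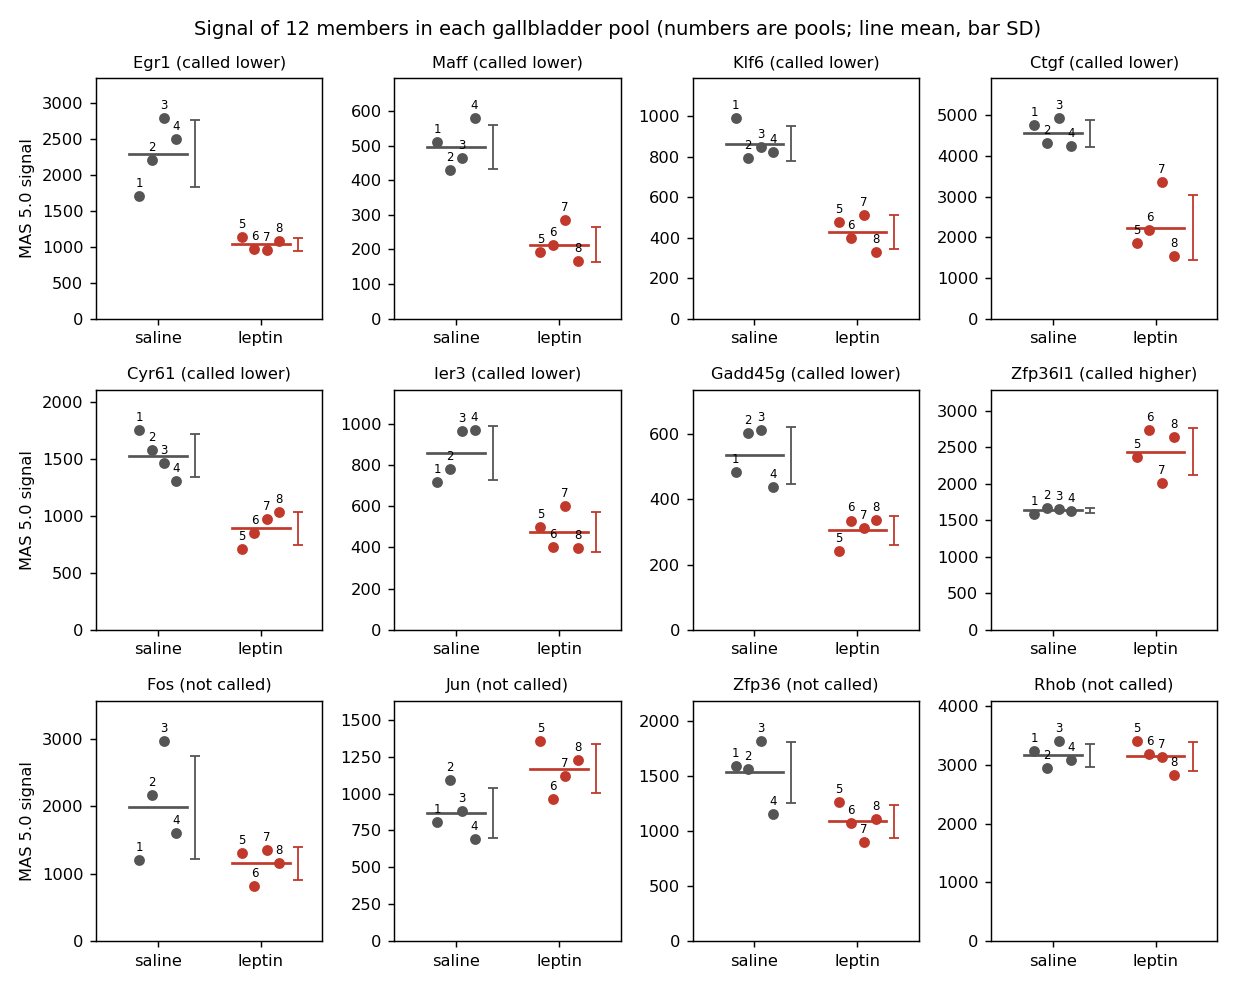
MAS 5.0 signal (y axis, linear, from 0) of 12 members in each pool, with the pool number beside each point, the mean as a line and the SD as a bar, 4 pools per treatment. In the 8 called members the treatments do not overlap, while single pools of Fos (saline 1), Jun (saline 2) and Zfp36 (saline 4) lie within the range of the other treatment.

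Single pools differed in how often they stood at the edge. Saline pool 3 held the highest value of its treatment in 14 of 33 members and saline pool 4 the lowest in 14. The median deviation from the saline mean was 0.074 and -0.14 (log2) in these pools and between -0.24 and -0.14 in leptin pools. Over the 7 members called lower, that median lay between -1.09 and -0.74 in leptin pools, with leptin pool 7 the nearest to saline. Without leptin pool 7, 7 members were again called lower and 1 higher, each of the 8 at the same sign and side of the threshold.

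**Figure D4:**
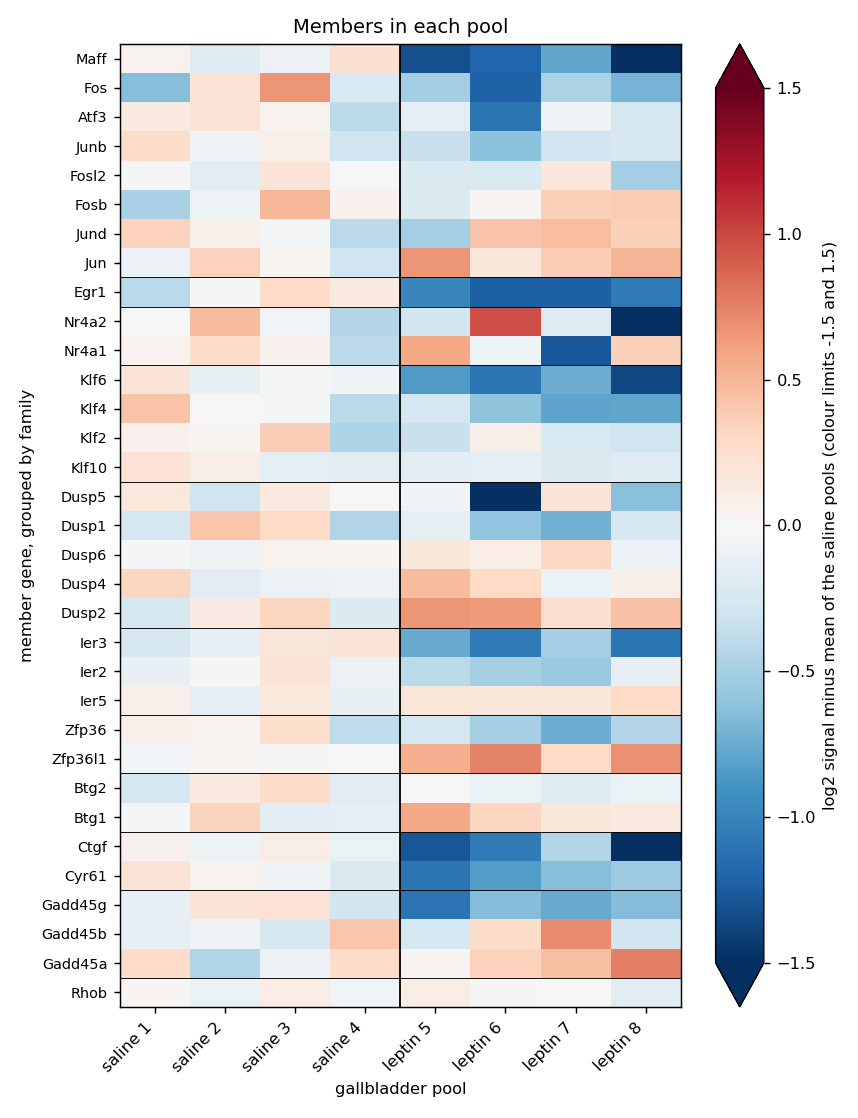
Log2 signal of the 33 tested members in each pool minus the mean of the saline pools (colour, blue lower and red higher, limits -1.5 and 1.5), by family. Rows of Maff, Egr1, Klf6, Ier3, Ctgf, Cyr61 and Gadd45g are blue in all 4 leptin pools, whereas rows such as Nr4a1 and Nr4a2 change colour from pool to pool.

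The actin 3' to 5' ratio and markers of tissue makeup also moved with treatment. The actin ratio was higher in leptin pools, though that of leptin pool 7 (1.674) lay just under that of saline pool 3 (1.683). The GAPDH ratio overlapped between treatments, at 0.774 to 0.870 in saline and 0.791 to 0.846 in leptin pools. With the actin ratio as a covariate, 4 members were called lower and 0 higher, against 2.24% and 1.27% of all tested genes. Egr1 (-1.39, limma adjusted p = 0.00262) and Klf6 (-0.93, 0.046) were called in both fits. Dusp1 (-0.96, 0.0337) and Zfp36 (-0.81, 0.0377) were called with the covariate and not without it. The calls of Maff (-0.87, 0.0703), Ier3 (-0.82, 0.0939), Zfp36l1 (0.46, 0.146), Cyr61 (-0.52, 0.156), Ctgf (-0.70, 0.141) and Gadd45g (-0.72, 0.139) were lost. The SE grew as well, for example from 0.17 to 0.24 for Maff.

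**Figure D5:**
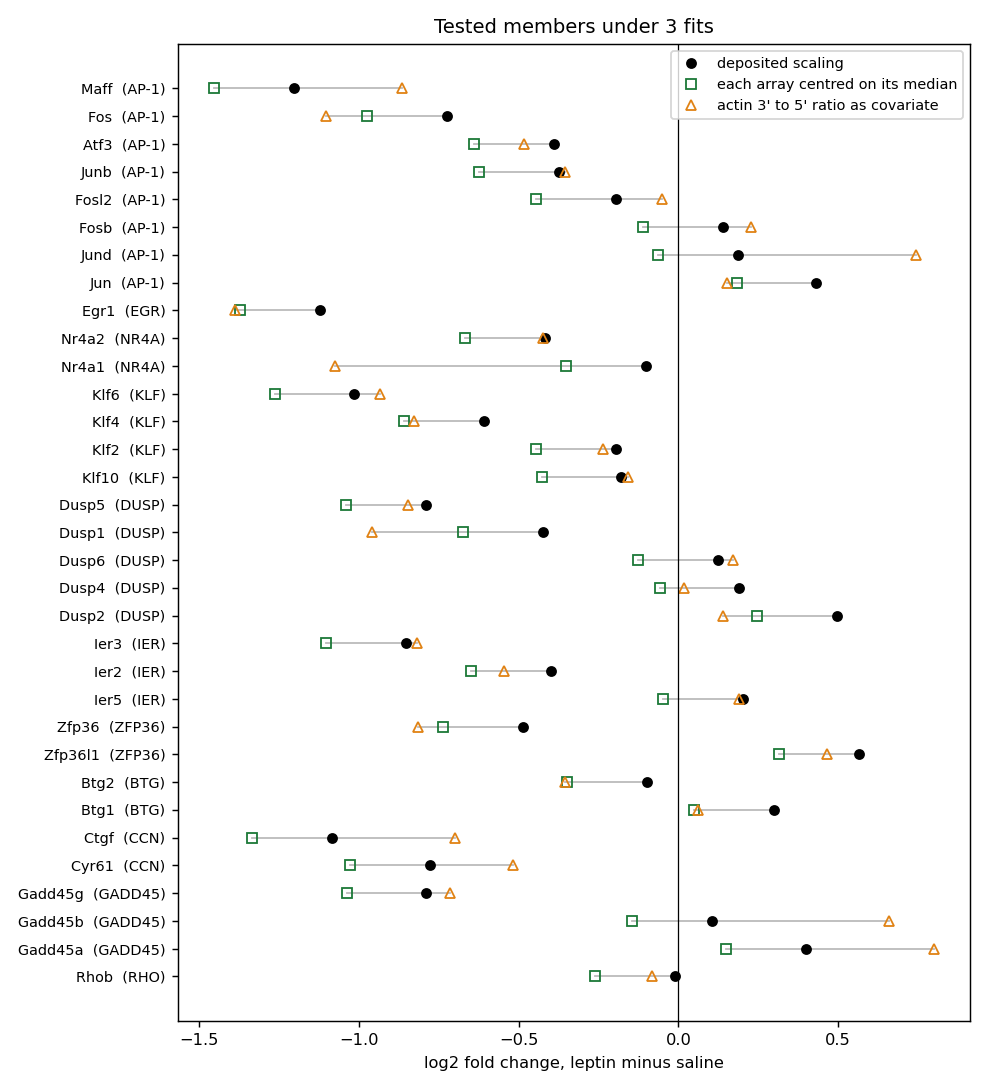
Log2 fold change (x axis, leptin minus saline) of the 33 tested members in 3 fits: the deposited scaling, each array centred on its median, and the actin 3' to 5' ratio as covariate. Median centring lowers the members alike, for example Jund from 0.19 to -0.064, and the covariate moves them in both directions, for example Ctgf from -1.08 to -0.70 and Nr4a1 from -0.10 to -1.07.

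Centring each array on its median log2 value shifted the median log2 fold change of all tested probe sets from 0.039 to -0.21. In that fit 15 members were called lower and 0 higher, against 18.1% and 2.18% of all tested genes, and the shift touches every probe set of an array. The added members were Fos, Fosl2, Junb, Klf4, Klf10, Dusp1, Ier2 and Zfp36. Over all 22519 probe sets the split went from 798 higher and 763 lower to 406 and 3586.

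Markers of immune cells were higher with leptin, and part of the epithelial markers lower. Across all tested genes, 4.29% were called higher and 3.98% lower. All 7 macrophage markers rose, with a summed signal of 3284 to 4510 in saline and 7877 to 9356 in leptin pools. Of these calls, 4 were lost with the actin covariate, those of Adgre1, Cd68, Lyz2 and Fcer1g (limma adjusted p = 0.215, 0.207, 0.0558 and 0.0609). Cd68 also lost its call under median centring and without saline pool 2 or leptin pool 8. All 4 tested B and plasma cell markers rose, and all 6 on the array summed to 378 to 485 in saline and 12720 to 20630 in leptin pools. The brightness filter used the mean of all 8 pools, so a gene dim with saline could be tested through its leptin values. Jchain, for example, was at 45.7 to 82.3 in saline pools and 2044.5 to 5624.6 in leptin pools. Of 4 tested neutrophil markers 3 rose, and all 5 on the array summed to 554 to 1029 and 3458 to 5974, with Camp under background in all pools. Of 9 epithelium markers, 3 keratins fell (Krt8, Krt18 and Krt7) and Tff2 rose, and the sums were 37110 to 45760 and 31680 to 35330. The calls of all 3 keratins were lost with the actin covariate (limma adjusted p = 0.132, 0.255 and 0.14), and that of Krt18 also under quantile and loess scaling and in 7 of the 8 fits that left out 1 pool. The part of these cells in the members' values was not tested.

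Of 8 smooth muscle markers, Actg2 fell and Smtn rose (sums over all 8 of 42360 to 57440 and 40470 to 52110). Actg2 lost its call with the actin covariate (limma adjusted p = 0.399), under quantile and loess scaling and in 5 of the 8 fits that left out 1 pool. Smtn lost it with the actin covariate (0.0883) and under median centring. None of 7 endothelium and 7 fibroblast markers was called by limma, with 1 and 4 at an unadjusted p under 0.05. Of all 11719 tested genes, 2986 were at such a p. Of 7 hepatocyte markers Apoa1 rose, a call lost with the actin covariate (limma adjusted p = 0.549), under median centring and in 5 of the 8 fits that left out 1 pool. The 7 hepatocyte markers summed to 60710 to 97010 in saline and 78620 to 91750 in leptin pools. Of 4 adipocyte markers Cidec fell, and 3 had an unadjusted p under 0.05 (limma). The adipocyte sums were 3246 to 11260 in saline and 3062 to 5174 in leptin pools. None was called of the tested 2 T and NK cell, 1 red blood cell and 2 neuron and glia markers, with 2, 0 and 0 at an unadjusted p under 0.05 (limma).

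Genes that act upstream of the members were read against the 3.98% of all tested genes called lower and 4.29% higher. Of 7 genes of serum response factor and its partners, 0 fell and 1 rose: Elk3, a ternary complex factor that can repress serum response elements. Elk3 signals were 171, 180.1, 126 and 141 with saline and 285, 342, 248 and 351 with leptin, without overlap. Its log2 fold change was 0.95 ± 0.18 (SE; limma adjusted p = 0.00707), and the call was lost with the actin covariate (0.0931). Srf was at -0.51 (adjusted p = 0.0531).

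No call came from 11 tested genes of the MAP kinase cascade, 7 of CREB and its coactivators, 7 of the EGF receptor and its ligands, or 8 of Sprouty, Spred and other feedback inhibitors. At an unadjusted p under 0.05 limma had 3, 2, 4 and 2 of them. Among all 11719 tested genes 2986 were at such a p, and 3.98% were called lower and 4.29% higher. Median log2 fold changes of these lists were -0.053, 0.098, -0.11 and -0.11. Among the EGF receptor ligands, Ereg and Hbegf were at -0.82 and -0.62, and limma adjusted p-values were 0.0557 and 0.0599. RNA level says nothing of phosphorylation, by which these kinases are switched on.

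Among 25 tested primary response genes outside the 37, 3 fell and 2 rose, against 3.98% and 4.29% of all tested genes. Their median was -0.29. Myc, the growth regulator, had signals of 612.5, 580.5, 684 and 712.5 with saline and 195, 159, 112 and 159 with leptin, at -2.02 ± 0.17 (SE; limma adjusted p = 1.56e-05). Cebpd, of the acute phase, was at -0.89 ± 0.17 (adjusted p = 0.00971), and the kinase gene Sgk1 at -0.75 ± 0.15 (0.00929), whose call was lost with the actin covariate (0.0823). Nfkbiz and Nfkbia went the other way. Nfkbiz was at 1.15 ± 0.15 (adjusted p = 0.000526) and Nfkbia at 0.41 ± 0.084 (0.0112). Nfkbia lost its call under median centring, with the actin covariate and without a mean-variance trend (adjusted p up to 0.274).

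The YAP and TAZ pathway, which regulates Ctgf and Cyr61 among others, had 2 of 10 tested genes lower and 0 higher. Of all tested genes 3.98% were called lower and 4.29% higher. The median of the list was -0.30. Ajuba, a LIM protein, was at -1.16 ± 0.14 (SE; limma adjusted p = 0.000338). Tead1, the DNA-binding partner of YAP, was at -0.88 ± 0.11 (adjusted p = 0.00039). Tead1 signals were 1435, 1411, 1519 and 1435 with saline and 889, 786, 763 and 711 with leptin. Ankrd1, a target gene, was at -0.93 (adjusted p = 0.0747), and Yap1 itself at 0.037 (0.898).

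Lists of stress genes were read against the same 3.98% of all tested genes called lower and 4.29% higher. Of 12 genes of the unfolded protein and integrated stress response, 0 fell and 1 rose, Atf5, at 0.67 ± 0.16 (limma adjusted p = 0.0228). Its call was lost with the actin covariate (adjusted p = 0.338), under median centring, without a mean-variance trend, and on leaving out saline pool 4, leptin pool 6 or leptin pool 8. Of 9 p53 targets, Cdkn1a and Trp53inp1 fell, at -1.31 ± 0.23 and -0.56 ± 0.15, and Bbc3 rose, at 1.33 ± 0.34. All 3 calls were lost with the actin covariate (adjusted p = 0.108, 0.297 and 0.265). Trp53inp1 also lost its call in 7 of the 8 fits that left out 1 pool, and Bbc3 without saline pool 1. Both lost it under quantile and loess scaling. Bbc3 signals were 19.7 to 75.6 with saline and 123.6 to 168.6 with leptin, so its leptin values could carry it past the brightness filter.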

How the data were processed

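The deposited values are linear intensities, 1 MAS 5.0 signal per probe set of an Affymetrix Mouse Genome 430 2.0 array, made by the authors with MAS5, per the submitters' processing notes. The sources used here give neither its version nor detection calls nor scan dates, and no batch could be examined. Each array had a 2% trimmed mean of 250. No 2 arrays were identical.

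Signals were taken to log2(signal + 8.2), 8.2 being their 10th percentile, which understates fold changes of dim genes. Apart from 64 controls, the brighter part of the probe sets (22519, those not under the median of mean log2 values) was tested. The comparison used lmFit and eBayes with trend (limma 3.58.1, R 4.3.3), two-sided, Benjamini-Hochberg adjusted over all tested probe sets, threshold 0.05. The fit was also run on simulated data with independent noise for each probe set. Such data lack what probe sets of a pool share, so they do not give the error rate in these arrays. Error is SE of the log2 fold change or SD of signals, n = 4 pools. The labels name the pools as separate, so p-values measure the spread between pools. Background was 46.0, the 95th percentile of 27 bacterial control probe sets. Precision is limited by the number of arrays.

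Of the probe sets, 34958 had 1 symbol, 932 several and 9211 none in the annotation; 34754 symbols were taken by Entrez identifier from the table for GRCm38.p6. A gene was read from its brightest probe set. Every member is accounted for; pool values are given for called members and the brightest of each family (Jund, Egr1, Nr4a1, Klf10, Dusp1, Ier2, Zfp36l1, Btg1, Ctgf, Gadd45b, Rhob). Those of Fos, Jun, Klf4, Zfp36, Elk3, Myc and Tead1 were added after values were seen, as were Srf, Ereg, Hbegf, Ankrd1 and Yap1. The members, lists and alternatives were chosen with earlier results of these data known.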

Additional observations from a re-analysis of the deposited data

Results flagged for a closer look

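In 66 groups of 4 pools (33 tested members, 2 treatments), a single pool lay far from the rest 3 times, and chance gives about 1 in 20. Jund in leptin pool 5 was at 2183.8, against 4014.5 to 4319.6 in the other leptin pools. Dusp4 in saline pool 1 was at 338.1, against 240.7 to 255.3. Ier5 in leptin pool 8 was at 496.3, against 453.6 to 458.1.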

How the results depend on the processing

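Over the 33 members, 387 of 423 values under another setting kept their sign and side of the threshold, and of the rest 18 newly passed, 8 lost their call and 10 turned sign. With 1 pool left out, 254 of 264 kept both, 4 newly passed and 6 turned sign. The 8 called members kept their sign under every alternative run. The median log2 fold change of the members was -0.20. With median centring it was -0.45, with 15 members lower, 0 higher, 23 member probe sets called in place of 13, and 3992 probe sets in all in place of 1561. With the actin covariate these were -0.36, 4, 0, 5 and 654. At a threshold of 0.01 there were 507 probe sets in all, and at 0.10 there were 2763, with 11 members lower. Leaving out 1 pool gave 884 (without leptin 6) to 1431 (without leptin 7) probe sets in all, 7 to 9 members lower, 1 higher each time, 12 to 15 member probe sets, and a median of the members from -0.35 to -0.17. It was -0.35 without saline 4, -0.33 without leptin 5 and -0.32 without leptin 7. The counts in all were 892, 943, 1028 and 985 without saline 2, saline 4, leptin 5 and leptin 8.

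Signs turned only in uncalled members. Fosb and Rhob turned under quantile (-0.12 and 0.12) and loess scaling (-0.093 and 0.12). With median centring, Fosb was at -0.11, Jund -0.064, Dusp4 -0.059, Dusp6 -0.12, Ier5 -0.047 and Gadd45b -0.14. With 1 pool left out, Fosb ran from -0.023 (saline 1) to 0.31, Rhob from -0.052 to 0.037 (leptin 8; 0.024 without saline 3), and Nr4a2 from -0.88 to 0.17 (leptin 8). Gadd45b ran from -0.094 (leptin 7) to 0.24, and Nr4a1 was at 0.29 without leptin 7. The cause was not tested. No paired analysis was possible because pool numbers 1 to 4 and 5 to 8 are not shared between treatments. With signals near background, Fosl1, Egr2, Egr3 and Nr4a3 were left out by the brightness filter. Without it all 37 members were tested, again with 7 called lower and 1 higher, and none of these dim genes was called. Signals so dim limit what a missing call shows.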
